A study of Drosophila melanogaster with 4 samples.

Results

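The salivary glue protein genes Sgs1, Sgs3, Sgs4, Sgs5, Sgs7 and Sgs8 encode the adhesive that the larval salivary gland of Drosophila melanogaster secretes before pupation. The 6 genes were taken by symbol from a RefSeq gene table of the dm6 assembly, out of 13946 protein-coding genes with a place on chromosome 2, 3, 4, X or Y. Around them, binding of the transcription factor Ribbon (Rib) was read from ChIP-seq peak lists, by counting the peaks in each gene, within 1 kb and within 10 kb of it. The set was chosen by what had been seen of these same peak positions, so the counts below are a description and carry no test.

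Glue genes are a classic example of tissue- and stage-restricted transcription. They are expressed in the salivary gland late in larval life under the steroid hormone ecdysone, through its receptor and the early genes that the receptor induces. Fork head (Fkh), a FoxA factor, is also known to act on them. The secreted proteins, several of them mucin-like with long repeats, glue the animal to a surface at pupation. Rib, which pairs a BTB domain with DNA binding of the Pipsqueak type, is needed for the embryonic salivary gland and trachea to elongate.

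The embryos examined were far younger than the stage at which glue is made. Their genotypes were fkh-GAL4::UAS-rib-GFP for the first driver and sage-GAL4::UAS-rib-GFP for the second, both carrying the same GFP-tagged rib transgene under UAS control and each expressing it through a driver used for the embryonic salivary gland. The labels name no other allele and do not say whether the native rib gene was altered. For each driver, embryos of stages 11 to 16 from 3 collections were merged into 1 immunoprecipitated sample and 1 input. No value therefore has a replicate error. The fkh-Gal4 list held 4196 peaks and the sage-Gal4 list 907, with median widths of 122 bp and 102 bp; the read depth behind them is unknown, so a gene without a peak is not shown to be unbound. Whole embryos were used, with Rib-GFP made through these drivers. Where else the drivers are active was not examined. Binding in the gland therefore cannot be told apart from binding in any other cells that express them.

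No glue gene had a peak inside it in either list, and 1 of the 6, Sgs8, had a peak within 1 kb. Sgs8 had 1 peak at that distance in the fkh-Gal4 list and 1 in the sage-Gal4 list, and these overlapped. Within 10 kb, 3 of the 6 genes had a fkh-Gal4 peak, and the same 3, Sgs8, Sgs7 and Sgs3, had a sage-Gal4 peak. These 3 are neighbours on chromosome arm 3L and shared their peaks, so they count as 1 locus of 4 and not as 3 separate cases. Sgs1 on 2L, Sgs4 on X and Sgs5 on 3R had no peak within 10 kb in either list.

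Among all 13946 protein-coding genes, a fkh-Gal4 peak lay in the gene for 8.15%, within 1 kb for 11.6% and within 10 kb for 29.5%. The sage-Gal4 list gave 3.71% in the gene, 5.62% within 1 kb and 14.8% within 10 kb. A peak within 1 kb in both lists, as at Sgs8, was found for 4.35% of genes, and one within 10 kb in both for 11.9%. Glue genes are short, the longest being Sgs1 at 4015 bp, and short genes meet fewer peaks. Of the 9755 coding genes no longer than that, 3.07% had a fkh-Gal4 peak in the gene, 6.26% within 1 kb and 25.3% within 10 kb. In the sage-Gal4 list the shares of these short genes were 1.32%, 3.00% and 12.6% for the same windows.

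**Figure D1:**
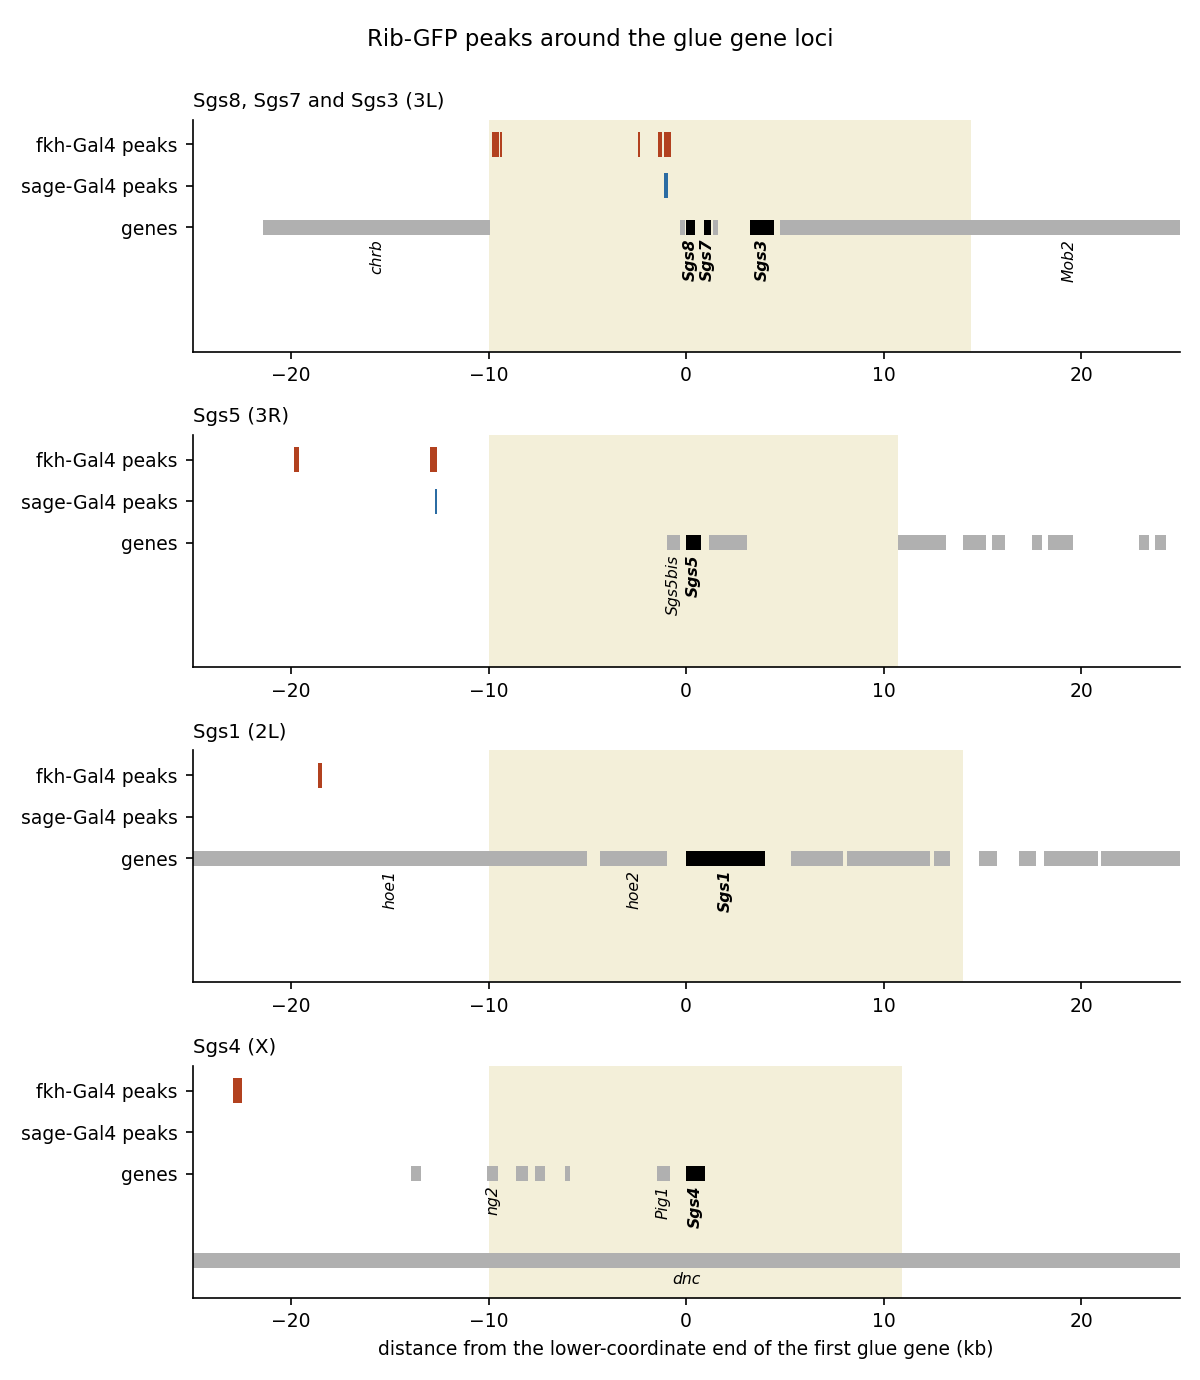
Peaks of the fkh-Gal4 list (red) and the sage-Gal4 list (blue) around the 4 glue gene loci, with glue genes in black and other protein-coding genes in grey (a selection is named); the horizontal axis is the distance in kb from the lower-coordinate end of the first glue gene, and shading marks the genes and 10 kb on either side. Peaks fall in the shaded part of the Sgs8, Sgs7 and Sgs3 panel only, and the nearest peaks of Sgs5, Sgs1 and Sgs4 lie outside it.

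The 3L cluster runs in the order chrb, CG33500, Sgs8, Sgs7, CG33272, Sgs3 and CG7512. Sgs8 spans chr3L:11508967-11509394 (428 bp), Sgs7 chr3L:11509861-11510247 (387 bp) and Sgs3 chr3L:11512221-11513402 (1182 bp). Sgs7 and Sgs8 encode small secreted proteins, and Sgs3 encodes a larger mucin-like one. CG33500 is a gene of 267 bp that ends 64 bp before Sgs8, and chrb encodes Charybde, an inhibitor of growth signalling through TOR. The gene table gives no strand, so starts and 3′ ends of these genes were not separated.

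All 5 fkh-Gal4 peaks and the 1 sage-Gal4 peak within 10 kb of a glue gene lay in the same stretch of 9581 bp between chrb and CG33500. The 466 bp between Sgs8 and Sgs7 held no peak of either list, nor did the 1631 bp between CG33272 and Sgs3. The binding recorded at the cluster thus lay on its lower-coordinate side, outside every annotated protein-coding gene.

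The peak common to both drivers was chr3L:11507821-11508185 in the fkh-Gal4 list, 365 bp wide, and chr3L:11507855-11508051 in the sage-Gal4 list, 197 bp wide. The sage-Gal4 peak lay wholly inside its fkh-Gal4 counterpart and covered 54% of it. Distances from this site grew along the cluster, and CG33500, not a glue gene, was the nearest gene, at 452 bp from the fkh-Gal4 peak and 586 bp from the sage-Gal4 peak. Sgs8 followed at 782 bp and 916 bp, Sgs7 at 1676 bp and 1810 bp, and Sgs3 at 4036 bp and 4170 bp, the fkh-Gal4 distance first in each pair. The sage-Gal4 peak sits inside the fkh-Gal4 peak and ends at 11508051, short of the fkh-Gal4 end at 11508185, so its distances are larger.

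The other 4 fkh-Gal4 peaks had no overlapping peak in the sage-Gal4 list. A peak of 191 bp (chr3L:11507554-11507744) lay 77 bp from the common one and 1223 bp from Sgs8, and one of 124 bp (chr3L:11506509-11506632) lay 2335 bp from Sgs8. The remaining pair, 330 bp (chr3L:11499150-11499479) and 94 bp (chr3L:11499545-11499638), sat 95 bp and 490 bp from the higher-coordinate end of chrb. Those 2 were 9488 bp and 9329 bp from Sgs8 and more than 10 kb from Sgs7 and Sgs3, so they counted for Sgs8 alone. Thus Sgs8 had 5 fkh-Gal4 peaks within 10 kb, Sgs7 had 3 and Sgs3 had 3, while each had 1 sage-Gal4 peak. With 1 of the 5 fkh-Gal4 peaks overlapped by a sage-Gal4 peak, the share can be read beside 14.0% of the whole fkh-Gal4 list, in which 586 of 4196 peaks were overlapped. That list includes peaks on scaffolds outside the gene table, and the share without them was not computed.

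**Figure D2:**
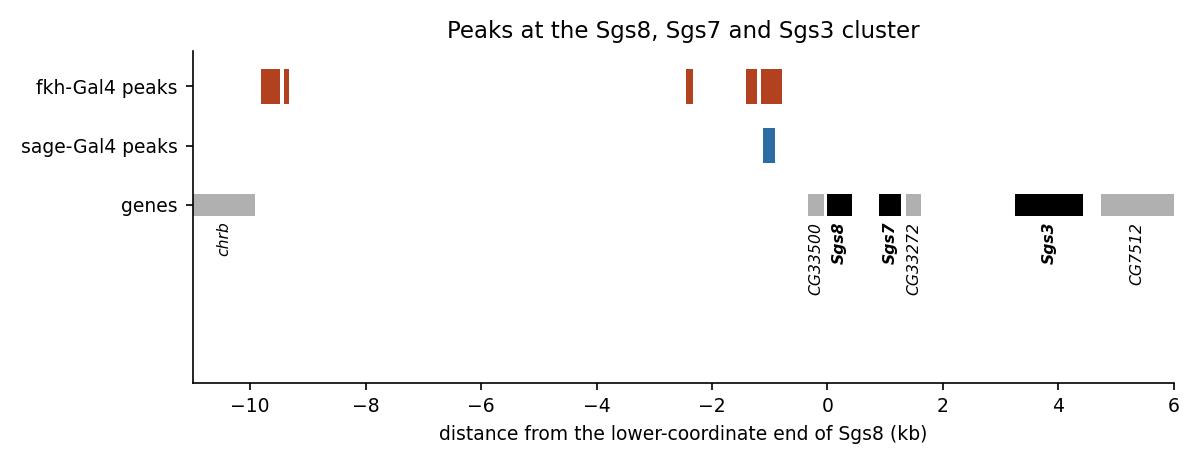
The 3L glue gene cluster, drawn to scale, with fkh-Gal4 peaks in red, the sage-Gal4 peak in blue, glue genes in black and other protein-coding genes in grey; the horizontal axis is the distance in kb from the lower-coordinate end of Sgs8. All 5 fkh-Gal4 peaks and the 1 sage-Gal4 peak lie between chrb and CG33500, and none lies between the glue genes.

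The common site was wide for each list. At 365 bp, the fkh-Gal4 peak was at least as wide as 92.4% of its list, with 319 peaks wider. At 197 bp, the sage-Gal4 peak was likewise at least as wide as 92.4% of its list, with 69 peaks wider. The fkh-Gal4 peaks of 330 bp, 191 bp, 124 bp and 94 bp stood at 89.8%, 75.6%, 51.4% and 30.1% of the fkh-Gal4 list. These shares are of whole lists, scaffolds outside the gene table included. On its chromosomes lay 3372 of the 4196 fkh-Gal4 peaks and 868 of the 907 sage-Gal4 peaks, and shares among those alone were not computed. Width is the only property of a peak that the lists give besides its place, and it is not a measure of how strongly Rib-GFP bound.

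**Figure D3:**
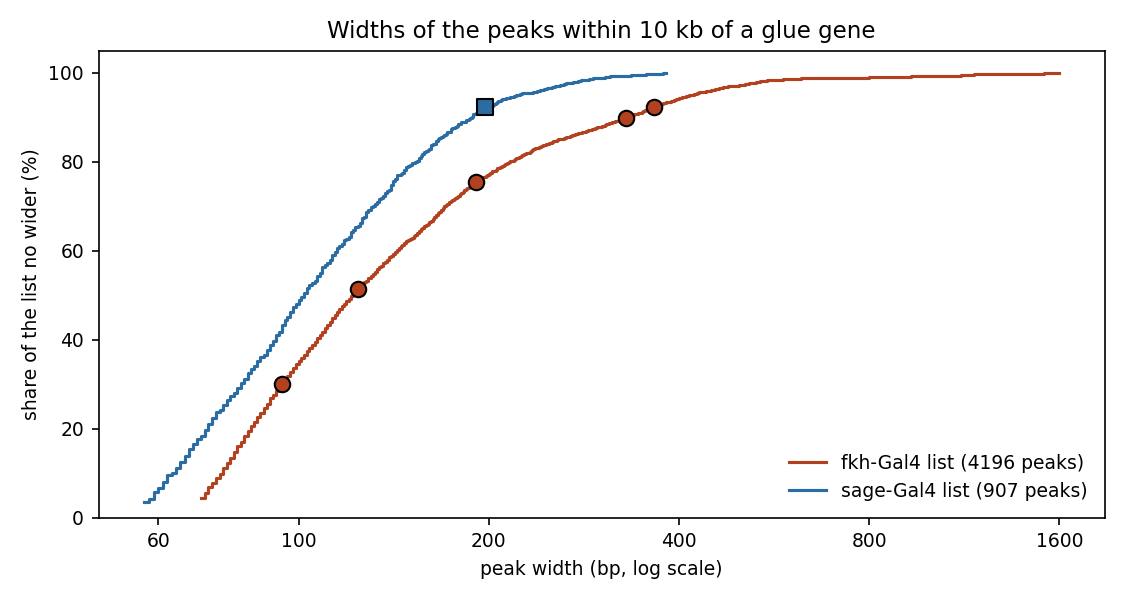
Cumulative distribution of peak width (bp, log axis) in the fkh-Gal4 list (red line) and the sage-Gal4 list (blue line), with the peaks within 10 kb of a glue gene marked as red circles (fkh-Gal4) and a blue square (sage-Gal4). The 365 bp fkh-Gal4 peak and the 197 bp sage-Gal4 peak both stand at 92.4% of their list, and the other 4 fkh-Gal4 peaks are spread from 30.1% to 89.8%.

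Measured by the distance to the nearest peak, the glue genes had the order Sgs8, Sgs7, Sgs3, Sgs5, Sgs1 and Sgs4 in the fkh-Gal4 list. In the sage-Gal4 list the first 4 kept this order and Sgs4 came before Sgs1. With 1 list per driver there is no spread against which neighbours in the order could be compared. Over all coding genes, the median distance to the nearest peak was 23461.5 bp in the fkh-Gal4 list (quartiles 7535.25 and 50865.5) and 56021.5 bp in the sage-Gal4 list (quartiles 20854.5 and 124701). Sgs8 was as near to a fkh-Gal4 peak as the nearest 11.1% of coding genes and to a sage-Gal4 peak as the nearest 5.56%. For Sgs7 these shares were 13.2% and 6.48%, and for Sgs3 they were 18.1% and 8.99%, with the same pair of peaks behind all 3 genes.

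**Figure D4:**
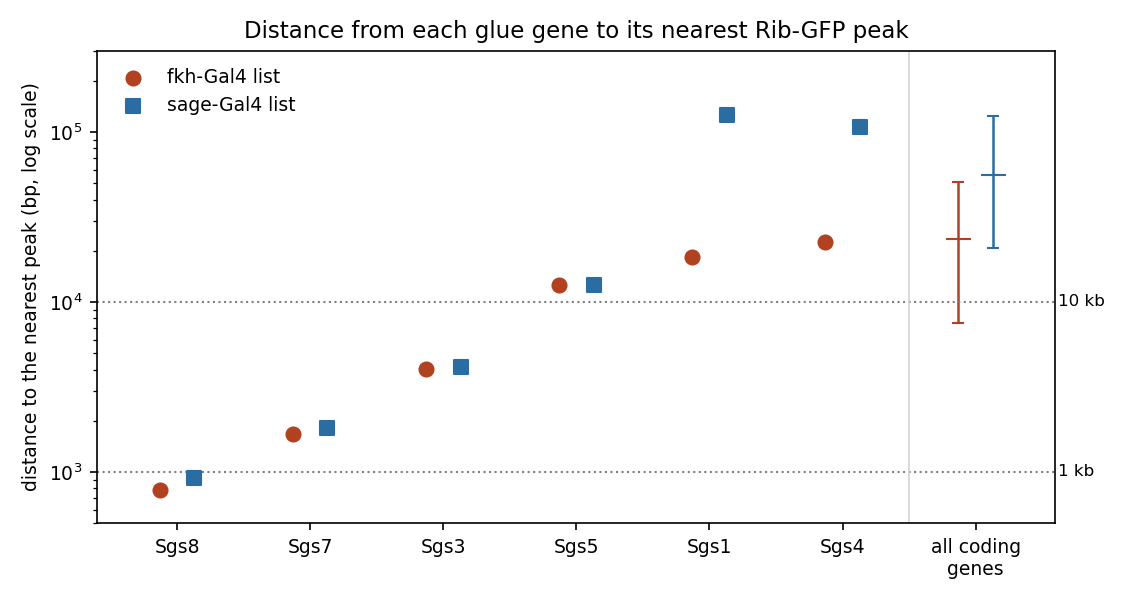
Distance in bp (log axis) from each glue gene to its nearest peak in the fkh-Gal4 list (red circles) and the sage-Gal4 list (blue squares), with the median and quartiles (bars) over the 13946 coding genes at the right and dotted lines at 1 kb and 10 kb. Sgs8 alone lies under 1 kb, Sgs7 and Sgs3 lie under 10 kb, and Sgs1 and Sgs4 are over 100 kb from a sage-Gal4 peak.

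Sgs5, on 3R (chr3R:17595362-17596112, 751 bp), came nearest to the 10 kb limit from outside. A fkh-Gal4 peak of 345 bp (chr3R:17582408-17582752) lay 12610 bp from it and a sage-Gal4 peak of 107 bp (chr3R:17582652-17582758) lay 12604 bp from it. These peaks overlapped by 101 bp, so this site, too, was in both lists. Their nearest annotated gene was Sgs5bis, a close neighbour of Sgs5, at 11634 bp from the fkh-Gal4 peak and 11628 bp from the sage-Gal4 peak. Inside the limit, the farthest gene was Sgs3, at 4036 bp and 4170 bp. For the 1 kb limit, the gene just inside was Sgs8 and the gene just outside was Sgs7, at the distances given above.

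Sgs1 and Sgs4, which encode repeat-rich, mucin-like glue proteins, were remote from peaks of the sage-Gal4 list. Sgs1 (chr2L:4937409-4941423) lay 18463 bp from its nearest fkh-Gal4 peak, which is inside hoe1, and 125573 bp from its nearest sage-Gal4 peak. Sgs4 (chrX:3250089-3251040, 952 bp) lies within the span of dnc, a gene for a cyclic AMP phosphodiesterase that also spans Pig1 and the ng genes. The dnc gene held 5 fkh-Gal4 peaks and no sage-Gal4 peak, and the one nearest to Sgs4 was 22475 bp away, while the nearest sage-Gal4 peak was 106754 bp away. By distance, 43.1% of coding genes were at least as near to a fkh-Gal4 peak as Sgs1 and 48.7% as Sgs4, and for sage-Gal4 peaks the shares were 75.3% and 70.1%. The nearest neighbours of Sgs1 (hoe2 and synr), of Sgs5 (Sgs5bis and CG7606) and of Sgs4 (Pig1 and CG10793) had no peak within 1 kb in either list. Of these, CG10793 lies 63704 bp from Sgs4, and dnc, which spans Sgs4, was not counted as a neighbour. How reads that map to several places were treated was not stated in the labels, and its part in the absence of peaks over repeat-rich glue genes was not tested.

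The peak of Sgs8 lay outside the gene in both lists. Histone genes left out, 572 genes, Sgs8 included, had a peak within 1 kb in both lists, and a peak overlapped the gene itself in 410 of them (71.7%) for fkh-Gal4 and in 403 (70.5%) for sage-Gal4. Among the 191 of these genes no longer than Sgs1, a peak outside the gene was about as frequent as one inside: the nearest fkh-Gal4 peak lay outside in 102 (53.4%) and the nearest sage-Gal4 peak in 97 (50.8%). Of the 572, 19 had their nearest fkh-Gal4 peak as far off as Sgs8 or farther, and 6 had their nearest sage-Gal4 peak as far off as that of Sgs8 or farther. CG33500 shares both peaks of Sgs8. Apart from it, the genes whose widest peaks were most like those of Sgs8 in width were GEFmeso, with 323 bp in the fkh-Gal4 list and 191 bp in the sage-Gal4 list, sbb, with 321 bp and 204 bp, and brat, a gene for a translational repressor, with 370 bp and 166 bp. The likeness is the sum over both lists of the absolute log2 width ratio, 0.22 for GEFmeso, 0.24 for sbb and 0.27 for brat among 570 genes. In all 3, a peak overlapped the gene.

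Other glue and salivary secretion genes had no peak near them. The list held 19 genes: Sgs5bis, Pig1, ng1 to ng4, the 11 Eig71E genes of an ecdysone-induced cluster, and the mucin genes Muc68Ca and Muc26B. None of the 19 had a peak within 10 kb in either list, beside the 29.5% and 14.8% of all coding genes given above. All but Muc68Ca (9524 bp) are no longer than Sgs1, and for coding genes of that length the shares were 25.3% and 12.6%. The nearest fkh-Gal4 peak was 11634 bp away, at Sgs5bis, and the list's median distance was 30029 bp; in the sage-Gal4 list the nearest was 11628 bp, at the same gene, and the median 76405 bp. The Eig71E genes stand in 1 array and the ng genes and Pig1 in another, so they share their surroundings and are not 19 separate cases. Sgs5bis lies within 10 kb of Sgs5, and Pig1 and the ng genes within 10 kb of Sgs4. Their windows therefore partly repeat those of these 2 members. From the ng genes, the nearest fkh-Gal4 peak was 12412 bp (ng2) to 16340 bp (ng4) away.

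Peaks were also counted at 11 genes for factors known to act on glue genes or the gland's secretory programme. Of these, 8 had a fkh-Gal4 peak in the gene or within 1 kb, beside 11.6% of all coding genes, and 3 had a sage-Gal4 peak, beside 5.62%. Many of these genes are long, up to 113744 bp for Eip75B, and long genes meet more peaks. Eip75B, an ecdysone-induced nuclear receptor, held 12 fkh-Gal4 and 5 sage-Gal4 peaks. EcR, the ecdysone receptor itself, held 3 and 2, and Trl, which encodes the GAGA factor, held 1 and 1. At Trl the fkh-Gal4 peak (chr3L:14757297-14757428) and the sage-Gal4 peak (chr3L:14758198-14758327) did not overlap.

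Peaks of the fkh-Gal4 list alone were found at the other 5. The nuclear receptor gene ftz-f1 held 3 peaks, the widest of 457 bp, and the ecdysone-induced regulators br and Eip74EF held 1 each, of 107 bp and 82 bp. CrebA, an activator of secretory genes, had a peak across its lower-coordinate end, and the gene fkh had one 338 bp outside it. The remaining 3 regulators had no peak within 1 kb in either list. The nearest fkh-Gal4 and sage-Gal4 peaks lay 8065 bp and 13733 bp from usp, the receptor partner of EcR, 19623 bp and 129512 bp from sage, which encodes a gland bHLH factor, and 73858 bp and 92809 bp from Eip93F.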

How the data were processed

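The authors deposited 1 peak list per driver, each with 3 columns (chromosome, start and end) and no score, height or p-value. Per the submitters' processing notes, BWA and MACS2 2.1.0.20140616 were used with build dm6; threshold, filters and use of the inputs are not given in the sources read. Reads were 50 bp, per the labels, and inputs were not analysed here. Starts were converted to 1-based. Distance is the difference in coordinates between the nearest edges of peak and annotated gene, 0 where they share at least 1 bp. Gene spans came from RefSeq (Release 6, the assembly of dm6). All names matched: the 6 members, 11 regulators and 20 secretion genes, of which 19 were used (Muc25B is an older name of Sgs1). Genes named are the members, their neighbours, genes at or nearest to peaks within 10 kb, context genes with a peak within 1 kb, and the 3 most like Sgs8 in peak width. Others, such as Sgs5bis, the ng genes, usp, sage and Eip93F, were named after their values were seen. Members and lists were chosen with earlier results of these data known; short genes were compared as a choice made after seeing the data. No test was made. Alternatives changed the window, the overlap, the peak position, merging and width. Interval code was tested on simulated data. Planned motif and protein comparisons were not run, as no sequence was used here. Python 3.11.15, pandas 2.3.3 and matplotlib 3.10.9 were used.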

Additional observations from a re-analysis of the deposited data

How the results depend on the processing

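Of 42 alternatives, 31 left the count within 1.5 times its value. The other 11 were these. With a window of 500 bp in place of 1 kb, the fkh-Gal4 count was 0 glue genes and the sage-Gal4 count 0, and with 2 kb there were 2 in each, Sgs7 joining Sgs8. With the peak centre as its position, or with at least 50% of the peak inside the window, the sage-Gal4 count within 1 kb was 0, since only one edge of that peak lies within 1 kb of Sgs8. A window of 20 kb in place of 10 kb gave 5 glue genes with a fkh-Gal4 peak, and 8 fkh-Gal4 and 2 sage-Gal4 peaks. A window of 5 kb, or merging of peaks within 500 bp, left 3 fkh-Gal4 peaks. The count of 0 peaks inside glue genes was the same under every alternative run for it. None of these could have raised it, since the nearest peaks lay 782 bp (fkh-Gal4) and 916 bp (sage-Gal4) from a glue gene. These alternatives are among the 31. No paired analysis was possible because each driver has 1 merged sample and no test was made. The lists carry no read depth, so peaks below the authors' threshold were not analysed here.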

Other observations

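The spacing of peaks at the common site on 3L is given as a description, since the genes were chosen with these peak positions known. The fkh-Gal4 peak beside Sgs8 had its next peak 77 bp away, where the median over 651 fkh-Gal4 peaks on 3L was 3024 bp and 42 of them (6.45%), this one included, had a neighbour as near. Its sage-Gal4 counterpart lay 255509 bp from the next peak of its list, where the median over 162 sage-Gal4 peaks on 3L was 45182 bp and 12 of them, this one included, were at least as isolated.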
